A study of Mus musculus with 10 samples.

Results

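Liver transcriptomes of 7 mice that were later given obeticholic acid (OCA), an agonist of the bile acid receptor FXR, were compared with those of 3 mice later given vehicle. The 7 later OCA biopsies hold 3 mice later classed as responders and 4 later classed as non-responders. All 10 were wild-type C57BL/6 mice on a western diet, biopsied at 12 weeks of feeding, and none had received OCA or vehicle by then. The comparison uses all 10 biopsies of the series and shows how far the 2 arms differed before dosing. The response classes were set from the histological activity score at the end of treatment. The study's methods state that mice were allocated to OCA or vehicle at random before dosing, after stratification on the activity score. Over all treated mice, the study reports a higher mean baseline score in the OCA group than in the vehicle group, without a significant difference. How the 10 sequenced mice were chosen among those treated is not stated in the labels or the methods. Each biopsy title carries a number pair in brackets whose meaning the labels do not give. The first number of the pair was 2, 4, 5, 6 or 8 in the later OCA biopsies and 1, 7 or 10 in the vehicle biopsies. Whatever that number marks therefore cannot be told apart from the arm.

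The hepatocyte makes most of the proteins of blood plasma, among them apolipoproteins, protease inhibitors and coagulation factors, and it also makes bile acids from cholesterol. Ribosomal RNA is transcribed as a long precursor, which the table lists as Rn45s, and is assembled with ribosomal proteins. The precursor holds the mature ribosomal RNAs, so counts on Rn45s do not tell precursor from mature RNA left in a library. Which of these differed between the arms was not tested. RNA of a whole biopsy is a mixture, so fewer cells of a type and less RNA per cell cannot be told apart.

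Total counts were 40432530 to 60393369 per later OCA biopsy and 53892299 to 76529328 per vehicle biopsy, a log2 difference of −0.30 (exact permutation test over 120 splits, two-sided p = 0.15). Rn45s took 10.97% to 25.7% of the counts in later OCA biopsies and 3.70% to 6.87% in vehicle biopsies. A fit that adds the log2 of this share was also made, and its medians are plotted for each list of at least 9 genes. Because the share did not overlap between the arms, share and arm are largely confounded in that fit, and a call lost or a sign turned there does not tell them apart. The TMM scaling factors were 0.825 to 1.09 in later OCA biopsies and 1.11 to 1.14 in vehicle biopsies and did not overlap. Hepatocyte markers were found in all biopsies, although Alb, which encodes albumin, ranked only 63rd of all genes by mean CPM (counts scaled to a common library size by TMM).

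Before treatment, 129 of 10844 genes tested differed between the arms, 92 being upregulated and 37 downregulated in later OCA biopsies (edgeR quasi-likelihood test, adjusted p under 0.05). These are 0.848% and 0.341% of all genes tested, 1.19% together. At an unadjusted p under 0.05, 1146 genes were higher and 934 lower. Of the 92 upregulated genes, 66 had a log2 fold change above 1 and 13 above 2. Of the 37 downregulated genes, 18 were below −1 and 3 below −2. The median log2 fold change was 1.22 and −0.999 in these groups, against 0.00 over all genes tested. The same values chose the genes, so these medians only describe them.

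The counts of genes called rested on few biopsies. Without vehicle 2 or without vehicle 3, only Rnase4 was called. Without vehicle 1, 9 genes were called higher and 11 lower. Without responder 3 or without non-responder 3, 9 were called higher and 0 lower, and these were Rnase4, Col18a1, Rpph1, Spsb2, Agt, Mir6236, Atic, Ptms and Apoe both times. Without responder 2 the counts were 18 and 2, and without responder 1 they were 84 and 19. All 129 genes kept their sign in each of these fits. With the Rn45s share in the fit, 0 genes passed, although 846 had an unadjusted p under 0.05. The 129 genes then kept their sign except for Rn45s, whose own difference this fit removes by construction, with medians of 0.88 for the upregulated and −0.58 for the downregulated genes.

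**Figure D1:**
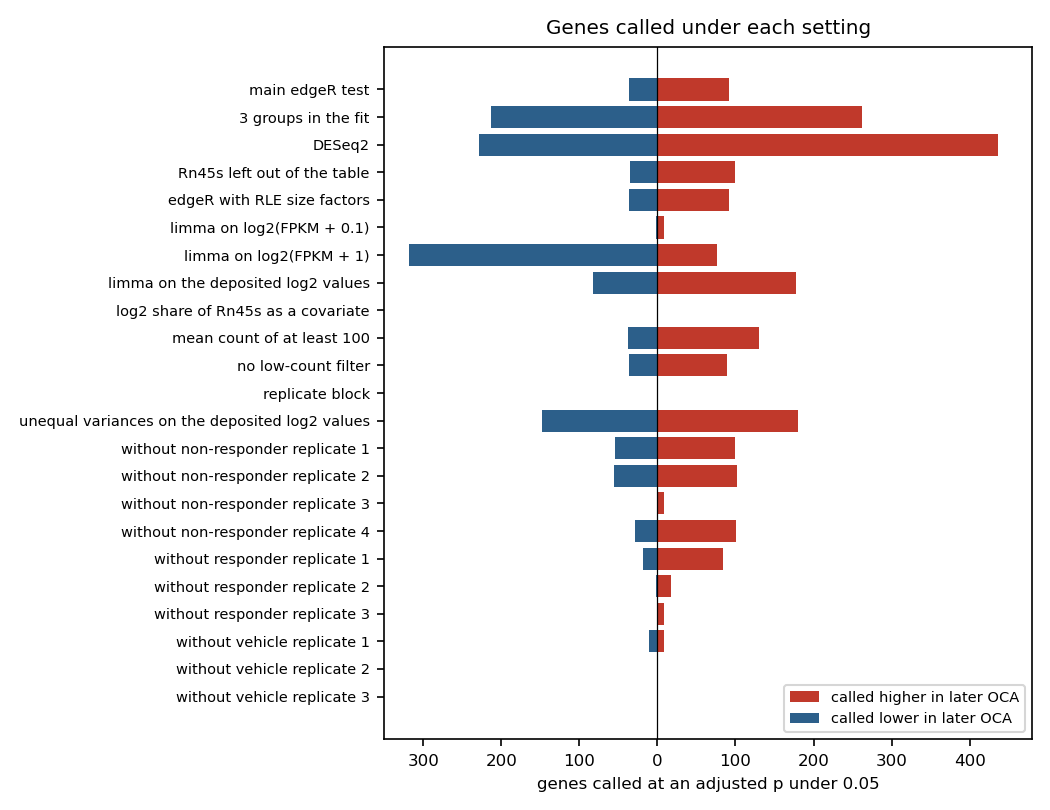
Number of genes called at an adjusted p under 0.05 by each fit, with genes higher in later OCA drawn to the right of 0 and genes lower in later OCA to the left. The main test called 92 and 37 genes, the fit with the Rn45s share called 0, and leaving out 1 biopsy gave 1 to 102 higher and 0 to 56 lower.

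In a description without any test, 1115 genes, 10.3% of those tested, had all 7 later OCA values on the same side of all 3 vehicle values. They were 598 higher genes (5.51%) and 517 lower genes (4.77%). Of the 1115, 945 had a mean FPKM of at least 1. This set includes 127 of the 129 genes called. Both exceptions had a wide spread within an arm. Mid1ip1, a regulator of lipogenesis, stood at 2.96 to 31.7 CPM (median 24.3) in later OCA biopsies, against 0.979, 3.17 and 1.49 CPM in vehicle. Cebpb, a transcription factor of the acute phase response, stood at 4.94 to 9.53 CPM (median 6.47), against 7.42, 7.92 and 321 CPM in vehicle biopsies 1, 2 and 3. The high value of Cebpb was that of vehicle 3 alone, and its log2 fold change of −3.99 became −0.12 without that biopsy.

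Genes at the edge of this description had almost touching arms. Celf1, which encodes an RNA-binding splicing regulator, lay just inside at 256 to 379 CPM in later OCA biopsies and 235 to 255 CPM in vehicle biopsies. Dicer1, the endonuclease that matures microRNAs, lay just inside on the lower side at 186 to 237 CPM and 237 to 259 CPM, and so did Pomt1, a protein O-mannosyltransferase, at 2.60 to 5.59 CPM and 5.59 to 8.44 CPM. Just outside lay Lrrc59 with 95.8 to 165 CPM in later OCA and 79.97 to 95.8 CPM in vehicle biopsies, Aars, an alanyl-tRNA synthetase, with 176 to 253 CPM and 253 to 293 CPM, and Ddo, D-aspartate oxidase, with 11.4 to 17.2 CPM and 6.80 to 11.4 CPM.

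**Figure D2:**
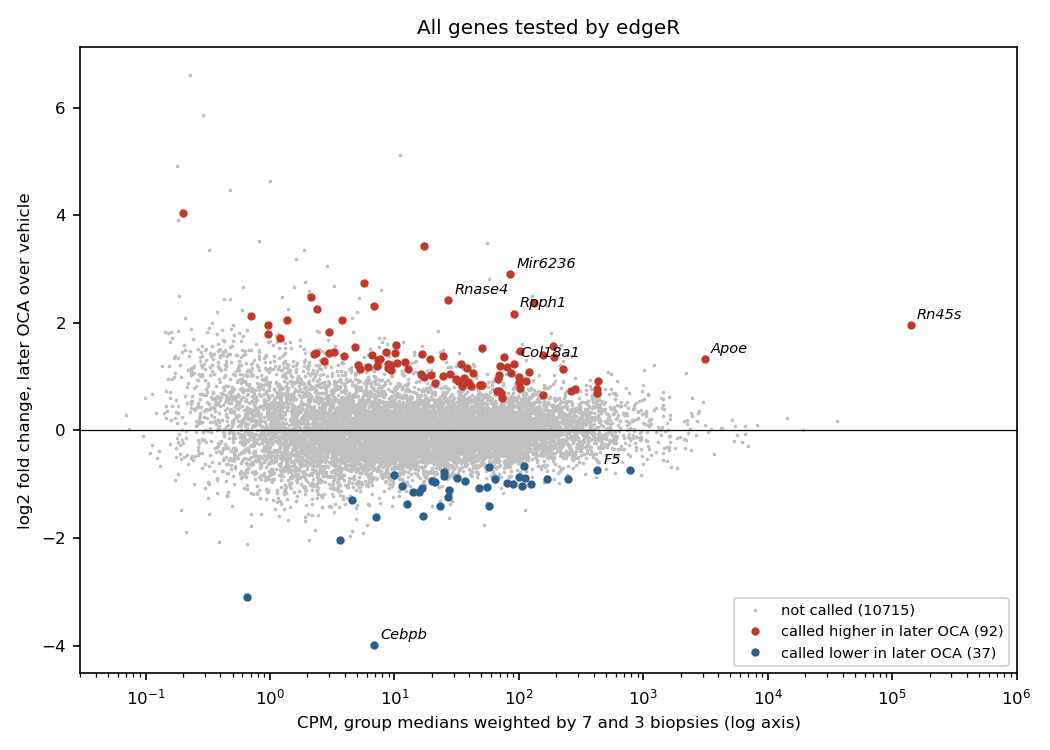
Log2 fold change of later OCA over vehicle (vertical axis) against expression level in CPM on a log axis, for all 10844 genes tested. The 92 genes called higher and 37 called lower lie across the range of expression, and Rn45s is the point of highest level.

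The genes of smallest p named from here on, 12 in each direction, were chosen among those without overlap. That their arms lie apart follows from this choice and supports nothing. Rnase4, which encodes a secreted ribonuclease made by hepatocytes, was the gene with the smallest p. Its level was 29.02 to 51.4 CPM (median 35.4) in the 7 later OCA biopsies, against 5.98, 7.73 and 7.10 CPM in the vehicle biopsies. The lowest later OCA biopsy was above all vehicle biopsies by a wide margin. The log2 fold change was 2.42 (SE 0.25, adjusted p = 0.00242), 2.33 to 2.51 when any 1 biopsy was left out, and 2.37 with the Rn45s share in the fit. It was called in each of the 10 fits that left out a biopsy. Rnase4 lies at chr14:51091077-51106151 (GRCm38.p6) and shares exon sequence with Ang, a related secreted ribonuclease, so reads of the shared part could be counted to either. Ang itself had 3.57 to 12.3 CPM (median 4.70) in later OCA biopsies, against 1.94, 2.48 and 4.36 CPM in vehicle biopsies, with overlapping arms (log2 fold change 1.04, SE 0.43, adjusted p = 0.211).

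Col18a1, the basement membrane collagen from which endostatin is cut, came next. It had 93.5 to 133 CPM (median 111) in later OCA biopsies, against 50.3, 48.6 and 41.2 CPM in vehicle biopsies, and the arms did not overlap. Its log2 fold change was 1.24 (SE 0.16, adjusted p = 0.0093). Of the 31 collagen and matrix genes tested it was the only one called (3.23%, against 0.848% of all genes tested called higher). Of the others, 6 were lower without overlap (19.4% of the list, against 4.77% of all genes tested), among them Lamb1, Lama2 and Nid1 of the basement membrane. The median log2 fold change over the list was −0.08, or 0.02 without vehicle 1 and −0.31 with the Rn45s share in the fit.

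Agt encodes angiotensinogen, the liver-made precursor of angiotensin. It had 17.3 to 27.8 CPM (median 20.5) in later OCA biopsies, against 7.43, 8.32 and 8.12 CPM in vehicle biopsies, the vehicle values lying close together and below all others (log2 fold change 1.41, SE 0.19, adjusted p = 0.012). Apoe, the apolipoprotein through which remnant particles are taken up, had 3467 to 5507 CPM (median 3702), against 1387, 1794 and 1907 CPM (log2 fold change 1.33, SE 0.20, adjusted p = 0.0199). As its choice requires, no later OCA value of Apoe reached down to the vehicle range. Ahsg, fetuin A, had 129 to 172 CPM (median 139), against 50.1, 77.4 and 81.8 CPM in vehicle biopsies (log2 fold change 1.08, SE 0.18, adjusted p = 0.028). The arms of Ahsg were apart as well.

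Genes of other roles were upregulated beside them. Atic, which carries out the last steps of purine synthesis, had 32.8 to 49.2 CPM (median 41.5) in later OCA biopsies, against 14.4, 19.97 and 17.1 CPM in vehicle (log2 fold change 1.23, SE 0.18, adjusted p = 0.0199). Ptms, parathymosin, had 164 to 312 CPM (median 238), against 74.1, 81.3 and 75.2 CPM (log2 fold change 1.57, SE 0.24, adjusted p = 0.0199). Atp6v1g1, a subunit of the proton pump that acidifies lysosomes, had 89.6 to 180.2 CPM (median 127), against 41.3, 50.2 and 42.5 CPM (log2 fold change 1.48, SE 0.24, adjusted p = 0.028). None of these genes overlapped between arms. Hmgn5, a nucleosome-binding protein, had 6.37 to 16.2 CPM (median 8.78), against 1.26, 2.34 and 2.93 CPM (log2 fold change 2.31, SE 0.38, adjusted p = 0.028). Spsb2, a substrate adaptor of a ubiquitin ligase, had 4.60 to 10.1 CPM (median 7.62), against 1.17, 1.45 and 0.623 CPM (log2 fold change 2.75, SE 0.38, adjusted p = 0.012). Spsb2 overlaps an exon of Tpi1 on the opposite strand, and the sources used here do not say whether counting used strand.

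**Figure D3:**
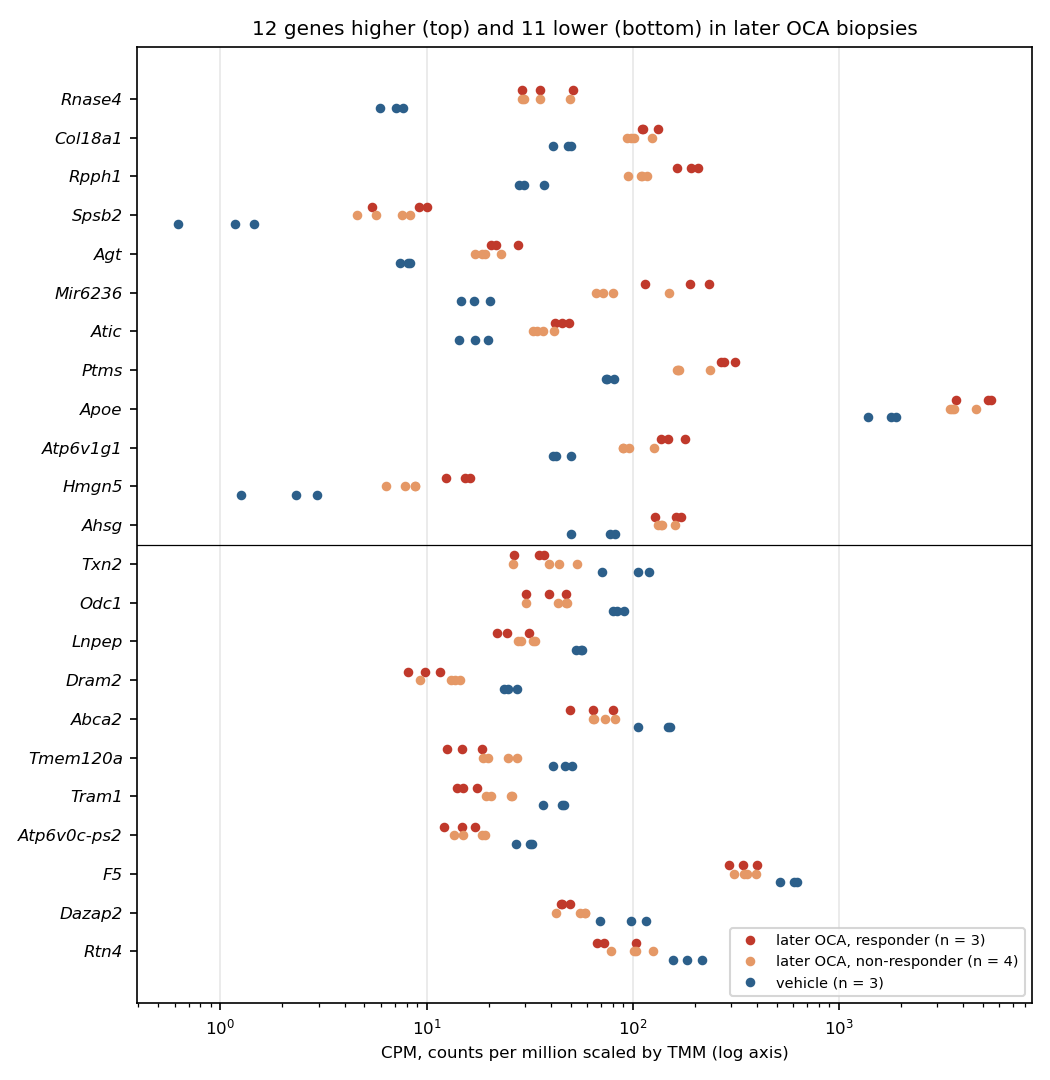
CPM on a log axis in each of the 10 biopsies for 12 upregulated (top) and 11 downregulated (bottom) genes of small p without overlap, with points coloured as later OCA responders, later OCA non-responders and vehicle. For Rnase4 the later OCA points lie at 29.0 to 51.4 CPM and the vehicle points at 5.98 to 7.73 CPM.

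To show the sequence from which the called genes are transcribed, the 250 bases before the start are printed for the called genes of smallest p, 2 in each direction, that have a single RefSeq promoter beginning at the gene's start (GRCm38.p6, 5′ to 3′ on the gene's strand). The choice was made among genes without overlap at a mean FPKM of at least 1. A single chromosome was left out of it. Capitals mark matches on either strand to the CCAAT box, to the TATA box searched as TATAAA, or to the E-box searched as CACGTG, and no match overlaps another. Agt lies at chr8:124569707-124569956 on the minus strand, Atic at chr1:71556906-71557155 on the plus strand, Txn2 at chr15:77928995-77929244 on the minus strand and Lnpep at chr17:17624490-17624739 on the minus strand.
Agt, upregulated: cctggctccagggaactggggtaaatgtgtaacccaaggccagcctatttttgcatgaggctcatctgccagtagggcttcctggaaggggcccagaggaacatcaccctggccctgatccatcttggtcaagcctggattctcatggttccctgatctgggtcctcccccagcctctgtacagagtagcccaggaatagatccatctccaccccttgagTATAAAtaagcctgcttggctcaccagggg
Atic, upregulated: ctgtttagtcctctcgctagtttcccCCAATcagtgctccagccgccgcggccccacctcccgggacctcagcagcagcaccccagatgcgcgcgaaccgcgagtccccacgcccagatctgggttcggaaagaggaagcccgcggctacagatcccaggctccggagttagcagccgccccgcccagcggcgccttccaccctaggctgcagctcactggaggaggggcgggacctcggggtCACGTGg
Txn2, downregulated: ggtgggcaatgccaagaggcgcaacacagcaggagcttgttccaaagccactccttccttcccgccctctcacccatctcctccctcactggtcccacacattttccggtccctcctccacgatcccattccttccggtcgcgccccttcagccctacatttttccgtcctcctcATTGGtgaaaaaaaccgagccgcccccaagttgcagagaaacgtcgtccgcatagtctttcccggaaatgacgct
Lnpep, downregulated: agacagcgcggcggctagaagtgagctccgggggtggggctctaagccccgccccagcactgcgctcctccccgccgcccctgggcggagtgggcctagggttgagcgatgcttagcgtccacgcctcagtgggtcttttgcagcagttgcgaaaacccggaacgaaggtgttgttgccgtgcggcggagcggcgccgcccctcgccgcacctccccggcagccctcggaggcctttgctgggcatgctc
Agt holds a TATA box match, Atic holds matches to the CCAAT box and the E-box, Txn2 holds a CCAAT box match on the other strand and Lnpep holds none. Over stretches of the same length before all RefSeq starts, 33.8% held the CCAAT box, 12.4% the TATA box and 6.02% the E-box. Over those of the genes tested, 35.2%, 6.70% and 8.40% held them. The upregulated genes with a RefSeq promoter (71 of 92, 89 promoters) had 41.6%, 12.4% and 8.99%. The downregulated genes (25 of 37, 29 promoters) had 48.3%, 13.8% and 6.90%. A match is a description of the letters only.

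Genes for secreted plasma proteins of the hepatocyte formed the list with the most genes called. Of 37 tested, 12 were upregulated (32.4%) and 0 downregulated, against 0.848% and 0.341% of all genes tested. In 19 the later OCA values lay above all vehicle values and in 1, Serpinc1, below them (51.4% and 2.70%, against 5.51% and 4.77% of all genes tested). The median log2 fold change was 0.72, against 0.00 over all genes tested. It was 0.62 with the Rn45s share in the fit, where no member was called, 0.66 to 0.79 when any 1 biopsy was left out, and 0.45 on log2(FPKM + 1). Members other than Rnase4, Agt, Apoe and Ahsg are named here after their values were seen.

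Apolipoproteins of lipoprotein particles made up much of the list. Apoa2, a structural protein of high-density lipoprotein, had 65.4 to 128 CPM (median 89.7) in later OCA biopsies, against 23.1, 46.4 and 42.3 CPM in vehicle biopsies (log2 fold change 1.36, SE 0.26, adjusted p = 0.035). Apoc1 had 56.5 to 94.6 CPM (median 84.3), against 22.99, 39.8 and 38.6 CPM, and Apoc3, an inhibitor of lipoprotein lipase, had 27.7 to 39.8 CPM (median 32.2), against 17.3, 20.1 and 11.99 CPM. Both were called, at log2 fold changes of 1.20 and 1.05. Apoh, which binds phospholipid, had 52.4 to 63.9 CPM (median 59.2), against 27.7, 38.4 and 32.1 CPM (log2 fold change 0.84, adjusted p = 0.0336). Apoa1, Apoc4 and Apoa5 lay above vehicle without overlap but were not called. Apoa5 had 139 to 329 CPM (median 223), against 7.55, 86.5 and 104 CPM, and its lowest vehicle value stood far from the other vehicle values (log2 fold change 1.80, SE 0.57, adjusted p = 0.123). Apob, the scaffold of very-low-density lipoprotein, had 1394 to 2141 CPM in later OCA biopsies and 1613 to 2239 CPM in vehicle biopsies, at a log2 fold change of −0.11 (SE 0.16).

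The remaining called members were carriers and inhibitors. Kng1, kininogen, had 38.2 to 59.1 CPM (median 45.2) in later OCA biopsies, against 13.8, 25.9 and 22.9 CPM in vehicle biopsies (log2 fold change 1.17, adjusted p = 0.0336). Fetub, fetuin B, had 8.40 to 19.5 CPM (median 12.03), against 2.98, 6.34 and 5.82 CPM (log2 fold change 1.44, adjusted p = 0.0499). Azgp1, zinc-alpha-2-glycoprotein, had a log2 fold change of 0.91, and Serpina1c, an alpha-1-antitrypsin paralog, of 0.99. Serpina1c has near-identical copies, so the split of its reads is uncertain. Alb itself had 955 to 1893 CPM (median 1631), against 884, 959 and 1054 CPM, with overlapping arms (log2 fold change 0.72, SE 0.20, adjusted p = 0.0855). Gc, the vitamin D binding protein, had the lowest log2 fold change of the list at −0.58 (SE 0.20, adjusted p = 0.145), and Ttr and Fn1 were at −0.05 and −0.05.

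**Figure D4:**
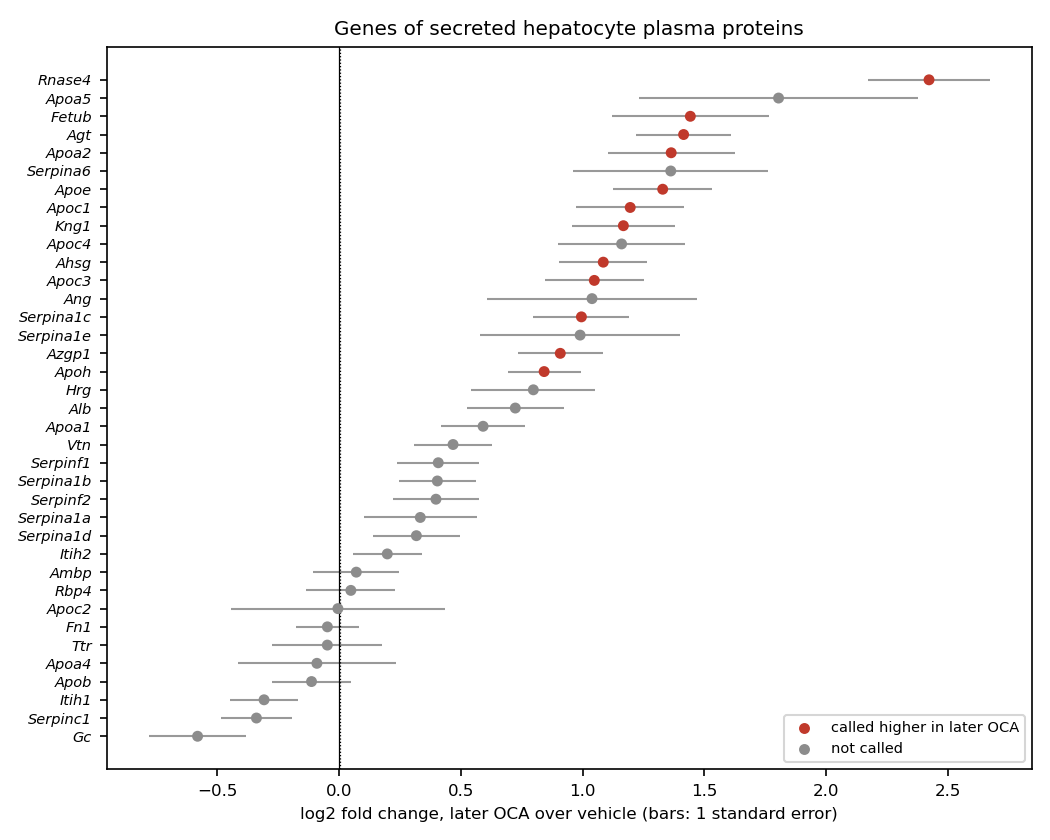
Log2 fold change of later OCA over vehicle with its standard error (horizontal axis) for the 37 genes of secreted hepatocyte plasma proteins that were tested. Red points are the 12 genes called higher, and 29 of the 37 points lie above 0, against 5444 of all 10844 genes tested.

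Complement and coagulation factors moved both ways. Of 31 tested, 4 were upregulated and 1 was downregulated (12.9% and 3.23%, against 0.848% and 0.341% of all genes tested). A further count without test put 8 above and 1 below vehicle without overlap (25.8% and 3.23%, against 5.51% and 4.77% of all genes), and the median log2 fold change was −0.03. Mbl1, which starts the lectin pathway, had 2.47 to 5.26 CPM (median 2.85) in later OCA biopsies, against 1.20, 1.32 and 1.13 CPM in vehicle biopsies (log2 fold change 1.44). Mbl2, of the same role and related sequence, had a log2 fold change of 1.54, and Pros1, the cofactor of protein C, of 0.88. On the lower side stood F5, coagulation factor V, with 294 to 402 CPM (median 348), against 519, 605 and 627 CPM (log2 fold change −0.73, SE 0.14, adjusted p = 0.035). Its later OCA values were all below the vehicle values.

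Acute phase and immune genes gave fewer calls. Of 25 acute phase genes tested, Crp and Serpina3m were upregulated (8.00%, against 0.848% of all genes tested). The median was 0.33, and its sign rested on the biopsies and the method, since it was −0.11 without responder 1, 0.60 without vehicle 1, 0.02 with DESeq2, −0.0089 on the deposited log2 values and −0.0046 with the Rn45s share in the fit. Crp, C-reactive protein, had 6.43 to 12.7 CPM (median 7.94) in later OCA biopsies, against 3.59, 3.77 and 2.51 CPM in vehicle biopsies. Serpina3m shares exon sequence with Serpina3k, which was also called. Of 23 genes of MHC class I and peptide loading, H2-Q9 and Nlrc5 were upregulated (8.70%, against 0.848% of all genes tested). Without overlap, 5 lay above and 1 below vehicle (21.7% and 4.35%, against 5.51% and 4.77% of all genes). The list median of 0.12 was −0.42 with the Rn45s share in the fit. H2-Q9, a class I gene with close paralogs, had 104 to 303 CPM (median 177), against 53.5, 30.9 and 20.5 CPM (log2 fold change 2.38, SE 0.42, adjusted p = 0.0328). Nlrc5, the transactivator of class I genes, had 2.86 to 6.69 CPM (median 4.11), against 1.99, 1.37 and 1.30 CPM. Of 29 interferon response genes 0 were called at the adjusted threshold, 5 lay above vehicle without overlap (17.2%, against 5.51% of all genes), and the median was 0.37.

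Of 9 noncoding RNAs made in the nucleus that were tested, Rpph1 and Rn45s were called higher (22.2%, against 0.848% of all genes tested). Rpph1, the RNA of ribonuclease P that trims the 5′ end of transfer RNAs, had 95.01 to 208 CPM (median 118) in later OCA biopsies, against 28.1, 37.3 and 29.6 CPM in vehicle biopsies (log2 fold change 2.17, SE 0.28, adjusted p = 0.0093, and 1.18 with the Rn45s share in the fit). All later OCA values were above all vehicle values. Rn45s was called as well, at 1.96 (SE 0.36, adjusted p = 0.0336), and Malat1 and Neat1 were not, at −0.06 and 0.63. The list median of 0.63 was −0.25 with the Rn45s share in the fit.

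The table also lists microRNA genes, of which Mir6236 and Mir5625 were called higher. The libraries were made with kits for messenger RNA, so these counts are reads over the precursor region and not the mature microRNA. Mir6236 had 66.7 to 234 CPM (median 115) in later OCA biopsies, against 16.9, 20.2 and 14.8 CPM in vehicle biopsies (log2 fold change 2.91, SE 0.43, adjusted p = 0.0196). The groups did not overlap, and with the Rn45s share in the fit the log2 fold change was 0.84. Mir5625 lies in an exon of Slc35f6 and had 0.0642 to 0.609 CPM (median 0.278), against 0.0148, 0.0163 and 0.0117 CPM, down to 1 read in a biopsy. Their mature sequences (RefSeq, GRCm38.p6) are shown because they name what the label stands for, with the seed of bases 2 to 8 in capitals, and they share no seed.
mmu-miR-6236, chr9:110281353-110281371: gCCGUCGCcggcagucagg
mmu-miR-5625-5p, chr5:30647936-30647956: cCCGGAAGuucuugaguagga
A few small nucleolar RNA genes, chosen after their values were seen, were downregulated. Snord16a had 2.85 to 8.00 CPM (median 3.57) in later OCA biopsies, against 16.2, 12.8 and 15.3 CPM in vehicle biopsies, Snora23 had a log2 fold change of −1.38, and Snord89 of −3.11 on 1 to 166 reads.

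Txn2, mitochondrial thioredoxin, led the downregulated genes. It had 26.2 to 53.9 CPM (median 37.3) in later OCA biopsies, against 71.3, 106 and 120.4 CPM in vehicle biopsies (log2 fold change −1.40, SE 0.22, adjusted p = 0.0274), and −0.41 with the Rn45s share in the fit. All later OCA values were below all vehicle values. Odc1, ornithine decarboxylase of polyamine synthesis, had 30.4 to 47.9 CPM (median 43.4), against 84.2, 80.4 and 90.5 CPM (log2 fold change −1.05, SE 0.17, adjusted p = 0.028), and −1.20 with the Rn45s share in the fit. Lnpep, an aminopeptidase of vesicles that carry GLUT4, had 21.9 to 33.6 CPM (median 28.7), against 56.02, 52.9 and 56.8 CPM (log2 fold change −0.94, adjusted p = 0.028). Again the arms were apart for both genes. Gclc, the catalytic subunit of glutathione synthesis, was the other antioxidant gene called, with 128 to 237 CPM (median 204), against 408, 322 and 357 CPM (log2 fold change −0.90, adjusted p = 0.0375). Of 29 antioxidant genes 0 were upregulated and 2 downregulated (6.90%, against 0.341% of all genes tested). The list median of −0.26 was 0.03 without vehicle 3, −0.40 without vehicle 1 and 0.41 with the Rn45s share in the fit.

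The other downregulated genes of smallest p had various roles. Dram2, a lysosomal membrane protein, had 8.17 to 14.6 CPM (median 11.7) in later OCA biopsies, against 23.7, 24.9 and 27.5 CPM in vehicle biopsies (log2 fold change −1.14, SE 0.20, adjusted p = 0.0321). Abca2, a lysosomal sterol transporter, had 49.5 to 82.2 CPM (median 64.9), against 152, 106 and 149 CPM (log2 fold change −0.99). Tmem120a had 12.5 to 27.5 CPM (median 18.7), against 41.3, 46.8 and 50.6 CPM (log2 fold change −1.24). The arms of these genes were apart. Tram1, which helps nascent chains enter the endoplasmic reticulum, had 14.03 to 26.1 CPM (median 19.5), against 36.9, 46.3 and 45.4 CPM (log2 fold change −1.11). Rtn4, a reticulon that shapes tubules of the endoplasmic reticulum, had 67.3 to 125 CPM (median 101.4), against 157, 184 and 218 CPM (log2 fold change −0.999, −0.11 with the Rn45s share in the fit). Dazap2 had 42.6 to 58.9 CPM (median 49.9), against 69.3, 98.1 and 116 CPM (log2 fold change −0.89). Atp6v0c-ps2, a processed copy of a proton pump gene whose reads may come from its parent, had a log2 fold change of −0.95. Of 38 genes of lysosome and proton pump, Ctsl and Atp6v1g1 were upregulated (5.26%, against 0.848% of all genes tested) and 0 downregulated. Without overlap, 6 lay above and 7 below vehicle (15.8% and 18.4%, against 5.51% and 4.77% of all genes).

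Cytosolic ribosomal protein genes, which encode the protein part of the ribosome, gave 3 calls, all on the lower side. Of 81 tested, 68 had a log2 fold change below 0 and 13 above, against 5400 and 5444 of all 10844 genes tested. Rps14, Rps29 and Rpl8 were downregulated (3.70%, against 0.341% of all genes). Without overlap, 12 lay below and 1 above vehicle (14.8% and 1.23%, against 4.77% and 5.51% of all genes tested), and the median was −0.43. Rps29 had 11.4 to 31.9 CPM (median 14.9) in later OCA biopsies, against 33.2, 42.3 and 64.1 CPM in vehicle biopsies. The median was below 0 under each scaling tried but 0.45 with the Rn45s share in the fit. These genes have many processed copies. Translation factors (45 tested, 0 called, median −0.22) and mitochondrial ribosomal proteins (66 tested, 0 called, median −0.19) had medians of 0.28 and 0.49 with that share in the fit.

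Genes of nuclear processes had list medians above 0 but hardly any call. Of 62 chromatin modifiers, 54 had a log2 fold change above 0, against 5444 of all 10844 genes tested. Of the 62, 0 were called and the median was 0.25. It was −0.28 with the Rn45s share in the fit. Of 55 splicing factors, 42 were above 0 and Luc7l3 was upregulated (1.82%, against 0.848% of all genes tested). Their median of 0.21 was −0.15 with the Rn45s share in the fit. On log2(FPKM + 1) the medians were 7.7e-05 for chromatin modifiers and −0.05 for splicing factors, against −0.17 over all genes tested. Kdm6b, a histone H3 lysine demethylase, had 191 to 496 CPM (median 271) in later OCA biopsies, against 142, 120.1 and 126 CPM in vehicle biopsies, and did not pass (log2 fold change 1.29, SE 0.30, adjusted p = 0.0577, and −0.10 with the Rn45s share in the fit).

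**Figure D5:**
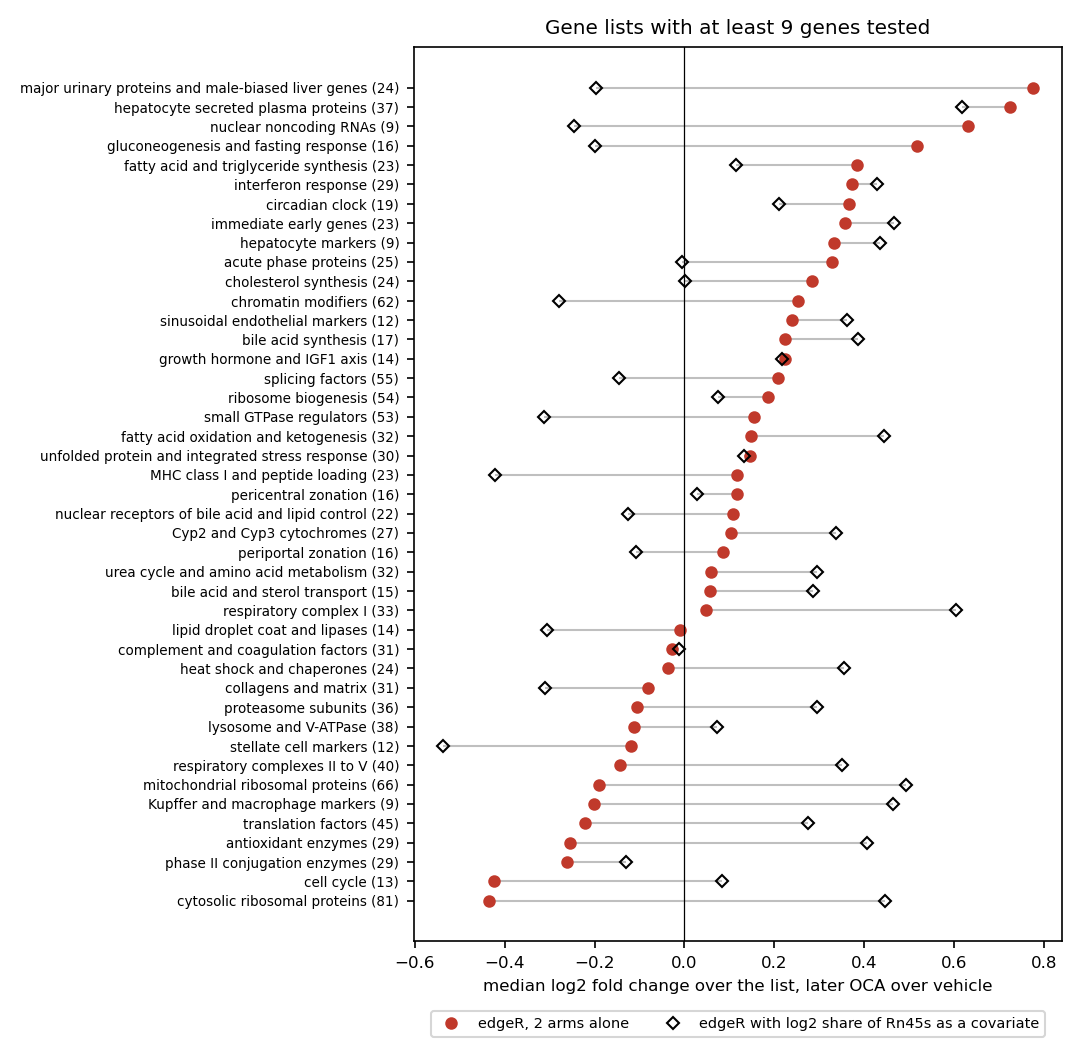
Median log2 fold change of later OCA over vehicle (horizontal axis) for each gene list with at least 9 genes tested, in the fit with the 2 arms alone (filled points) and with the Rn45s share added (diamonds). Plasma proteins lie at 0.72 and 0.62, whereas cytosolic ribosomal proteins lie at −0.43 and 0.45.

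Bile acid genes, the pathway on which OCA acts, gave no call among those of synthesis. Of 17 synthesis genes tested 0 were called, 3 lay above and 1 below vehicle without overlap (17.6% and 5.88%, against 5.51% and 4.77% of all genes). The median was 0.22, or 0.096 without vehicle 1, 0.51 without vehicle 3 and 0.39 with the Rn45s share in the fit. Cyp7a1, which catalyses the slowest step of the classical pathway, had 112 to 379 CPM (median 189) in later OCA biopsies, against 19.04, 278 and 659.7 CPM in vehicle biopsies (log2 fold change −0.48, SE 0.64, adjusted p = 0.723). Its vehicle values enclosed the later OCA values, and the sign of its difference turned with the setting, to 0.62 without vehicle 3, 0.42 on the deposited log2 values, 0.16 on log2(FPKM + 1) and 1.001 with the Rn45s share in the fit. Cyp8b1, the 12-alpha hydroxylase, had 10.1 to 41.4 CPM (median 16.2), against 14.03, 36.5 and 26.9 CPM (log2 fold change −0.07, SE 0.45). Cyp7b1 of the alternative pathway had 2.80 to 32.2 CPM (median 6.47), against 16.2, 14.4 and 11.3 CPM (log2 fold change −0.45, SE 0.56). Both genes overlapped between arms, and with the Rn45s share in the fit they were at −0.75 and −2.34. Cyp27a1, Akr1d1, Cyp39a1 and Cyp46a1 had log2 fold changes of 0.08, −0.07, 0.22 and 0.49. Baat, which conjugates bile acids to taurine, lay above vehicle without overlap at 3.32 to 6.34 CPM (median 4.46), against 1.32, 2.34 and 2.16 CPM, and missed the threshold (log2 fold change 1.25, SE 0.30, adjusted p = 0.0592).

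The receptor genes gave no call. Nr1h4, which encodes FXR, had 8.14 to 13.6 CPM (median 8.70) in later OCA biopsies, against 4.42, 7.58 and 5.94 CPM in vehicle biopsies (log2 fold change 0.78, SE 0.26, adjusted p = 0.138). Its arms did not overlap. Nr0b2, the FXR target that represses bile acid synthesis, had 5.24 to 12.7 CPM (median 7.53), against 8.37, 5.00 and 4.26 CPM, with overlap (log2 fold change 0.52, SE 0.32, and −0.54 with the Rn45s share in the fit). Rxra, Nr1h3 and Rora had 0.13, 0.29 and −0.59. Among transporters, Abcb4, which moves phosphatidylcholine into bile, was downregulated, with 544 to 739 CPM (median 688), against 1247, 949 and 1009 CPM (log2 fold change −0.73, SE 0.15, adjusted p = 0.0356). It was the only one of 15 transport genes called (6.67%, against 0.341% of all genes tested called lower).

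Metabolic genes were called singly. Thrsp, a lipogenic nuclear protein, had 127 to 314 CPM (median 232) in later OCA biopsies, against 66.8, 104 and 95.6 CPM in vehicle biopsies (log2 fold change 1.37, adjusted p = 0.035). It was the only one called of 23 genes of fatty acid and triglyceride synthesis (4.35%, against 0.848% of all genes tested). The median of that list was 0.38, or 0.11 with the Rn45s share in the fit. Creb3l3, a liver transcription factor of the fasting response, had 34.2 to 44.9 CPM (median 37.3), against 17.2, 21.8 and 23.1 CPM (log2 fold change 0.92, adjusted p = 0.0336). Gulo, the enzyme of vitamin C synthesis, had 11.6 to 19.2 CPM (median 14.7), against 4.97, 7.48 and 5.98 CPM. All these arms were apart. Angptl8, an inhibitor of lipoprotein lipase chosen after its values were seen, had 2.67 to 7.78 CPM (median 4.83), against 0.682, 1.39 and 1.62 CPM (log2 fold change 2.05). Of 24 major urinary protein and male-biased genes, Mup3 and Mup21 were upregulated (8.33%, against 0.848% of all genes tested). The list median of 0.77 was −0.20 with the Rn45s share in the fit, and Mup genes are near-identical copies. Of 40 genes of respiratory complexes II to V, Uqcrh was upregulated and Atp5l downregulated (2.5% each, against 0.848% and 0.341% of all genes tested).

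Markers of other liver cells were tested for the same comparison. Of 12 stellate cell, 12 sinusoidal endothelial, 9 Kupffer cell and 4 cholangiocyte markers tested, 0 were called. The list medians were −0.12 for stellate, 0.24 for endothelial, −0.20 for Kupffer and −0.44 for cholangiocyte markers, and −0.54, 0.36, 0.46 and 0.44 with the Rn45s share in the fit. Single markers went further, from −0.95 to 1.21 in the Kupffer list and from −0.48 to 1.89 in the endothelial list. Without overlap, Clec4g of the endothelial list and Ecm1 of the stellate list lay above vehicle (8.33% of each list, against 5.51% of all genes tested). Lyz2 of the Kupffer list, Spp1 of the cholangiocyte list and Reln of the stellate list lay below (11.1%, 25% and 8.33%, against 4.77%). The defining markers Clec4f of Kupffer cells, Lrat of stellate cells and Stab2 of endothelium had log2 fold changes of −0.05, −0.33 and 0.11. The summed stellate markers were 796 to 1340 CPM in later OCA biopsies and 1063 to 1399 CPM in vehicle biopsies, and the summed Kupffer markers 102 to 161 CPM and 119 to 180.1 CPM. Of 9 hepatocyte markers 0 were called, and their sum was 10429.7 to 25299 CPM in later OCA biopsies and 16524 to 20630.2 CPM in vehicle biopsies. Their log2 fold changes were above 0 in 6 and below 0 in 3. The list median was 0.33, or 0.44 with the Rn45s share in the fit. Apoa1 and Hnf4a lay above vehicle without overlap (22.2%, against 5.51% of all genes tested) and 0 lay below. Of 11 T and NK cell, 8 B and plasma cell and 8 neutrophil markers looked up, 0 were among the genes tested, which were above 0 in every biopsy. Of 8 sex chromosome genes tested 0 were called, at log2 fold changes of −0.48 to 0.20. Without overlap, Eif2s3y lay below vehicle (12.5%, against 4.77% of all genes tested) and 0 lay above. The alpha-globin gene Hba-a2, a marker of red blood cells, stood at 64.9 CPM in responder 3 and 152 CPM in non-responder 4, against 0.294 to 0.364 CPM in vehicle biopsies, and was below 1 CPM in the other later OCA biopsies. It was not called. The part of cell composition in the genes called was not tested.

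The pool of later OCA biopsies holds both response classes. In the fit with 3 groups, 0 genes were called between responders and non-responders, although 1604 had an unadjusted p under 0.05. Among the 92 upregulated genes, 74 (80.4%) had a responder mean above the non-responder mean, against 64.1% of all 5444 genes with a log2 fold change above 0 and 49.1% of all genes tested. Among the 37 downregulated genes, 32 (86.5%) had a responder mean below it, against 66.2% of all 5400 genes with a log2 fold change below 0 and 50.9% of all genes tested. In 20 of the 129 genes all responder values were above all non-responder values and in 8 below (15.5% and 6.20%, against 7.64% and 6.65% of all genes tested). The 129 hold 92 upregulated and 37 downregulated genes, and the shares over all genes are not matched for direction. The single genes that follow are given as examples. Ptms had 286 ± 23.5 CPM in responders, 184 ± 35.9 CPM in non-responders and 76.9 ± 3.87 CPM in vehicle biopsies (SD). Hmgn5 had 14.6 ± 2.01 CPM in responders, 7.94 ± 1.13 CPM in non-responders and 2.17 ± 0.844 CPM in vehicle biopsies. Rnase4 had 38.6 ± 11.6 CPM in responders, 35.98 ± 9.43 CPM in non-responders and 6.93 ± 0.887 CPM in vehicle biopsies, so its classes lay close to each other and both far from vehicle. The Rn45s share was also higher in responders on average, and its part in this order was not tested.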

How the data were processed

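RNA of liver biopsies from 10 mice had been sequenced by the authors. Their methods name FastQC 0.11.7 for quality, Trimmomatic 0.38 for trimming, HISAT2 2.1.0 for alignment to mm10 and StringTie for abundance. The labels name a TruSeq stranded and a SMARTER kit, and the sources used here settle neither the kit nor the use of strand in counting. For each of 10913 genes above 0 in every biopsy, the table that the authors deposited holds a whole read count, an FPKM value and a log2 value, the last taken of FPKM with 1 added and then quantile normalized. Columns of the authors' own comparisons, which hold fold changes, p-values and adjusted values between groups, were not used. No per-sample column was left unmapped.

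Counts were tested with edgeR 4.0.16 in R 4.3.3 (TMM scaling, filterByExpr with a minimum count of 10 and total of 15, quasi-likelihood test, Benjamini-Hochberg adjustment over 10844 genes, threshold 0.05), with 7 later OCA biopsies over 3 vehicle biopsies. Log2 CPM values use a prior count of 2. Each standard error (SE) of a log2 fold change was derived from this test. It is the absolute log2 fold change divided by the square root of the quasi-likelihood F statistic. Single values were compared with an exact permutation test over 120 splits, where 0.0167 is the smallest two-sided p. Alternatives were DESeq2 1.42.0, limma 3.58.1 on FPKM (pseudocounts 0.1 and 1) and on the deposited log2 values, other scaling and filters, a mean count of at least 100, Rn45s left out or its share as a covariate, a replicate block, and each biopsy left out. Gene positions and sequences come from RefSeq GRCm38.p6, which matched 10836 genes by their gene identifier. The 7 later OCA and 3 vehicle biopsies are separate mice, and no repeat of a library was found (median chi-square of counts per gene between biopsies 9.13 to 40.5, against 0.455 from counting alone). The members and gene lists were chosen with earlier results of these data known. Named are the 12 genes of smallest p in each direction among those called without overlap at a mean FPKM of at least 1, the bile acid genes of the study, up to 4 genes of smallest p per list, sex chromosome genes, and 3 genes on each side of the overlap limit. Some genes that this rule names are not reported here. Others were chosen after their values were seen.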

Additional observations from a re-analysis of the deposited data

How the results depend on the processing

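The main test called 92 genes higher and 37 lower in later OCA biopsies. DESeq2 called 436 and 229, a fit with 3 groups 262 and 213, limma on the deposited log2 values 177 and 82, the test with unequal variances on them 180 and 148, limma on log2(FPKM + 0.1) 9 and 2, and limma on log2(FPKM + 1) 76 and 318. The all-gene median was −0.25 and −0.17 on the last 2 scales, and 81.8% and 19.3% of their calls were higher, against 71.3% in the main test. The cause was not tested. With the Rn45s share as a covariate 0 and 0 genes were called, and Rn45s, whose own share is then the covariate, was at −0.065. That share did not overlap between the arms, so this fit does not tell it apart from the arm. A replicate block on the label numbers, which do not pair these mice (same-number correlations of −0.07 to 0.06 in 9 pairs, none above 0.1), left 0 and 0 genes, with 1767 at an unadjusted p under 0.05 and a smallest adjusted p of 0.0528. Leaving out 1 biopsy gave 1 to 102 higher and 0 to 56 lower. Genes without overlap numbered 598 and 517. They were 244 and 1218 with CPM by total counts, 251 and 1194 with FPKM as deposited, and 656 to 1146 and 569 to 1191 when 1 biopsy was left out. Other filters and scaling stayed within 1.5 times of the counts. Over 22 alternatives, the 48 called genes of the naming rule had 1055 values, 1054 of them with the same sign and 633 called. The 175 named genes that were not called had 3830, of which 105 turned sign, in 53 genes that include Cyp7a1. The 990 list medians moved by more than the spread in 65 cases. Counting depth was not the limit for genes of high count, but with 3 vehicle biopsies the spread between mice sets the precision.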

Other observations

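Genes of other roles were called beside the groups described above, and all were chosen after their values were seen. Shmt2, the mitochondrial enzyme that feeds carbon units from serine into folate, had 425 to 526 CPM (median 482) in later OCA biopsies, against 255, 292 and 293 CPM in vehicle biopsies (log2 fold change 0.78, adjusted p = 0.0321). Slc2a2, the glucose transporter GLUT2, had 153 to 190.3 CPM (median 176), against 113, 121 and 99.4 CPM (log2 fold change 0.66). Pigr, which carries antibodies into bile, had 381 to 588 CPM (median 495), against 211, 285 and 309.9 CPM (log2 fold change 0.91). The arms of these genes did not overlap. Egln1, an oxygen-sensing prolyl hydroxylase, and Herpud1, which acts in the degradation of proteins of the endoplasmic reticulum, had log2 fold changes of 0.79 and 0.69.

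On the lower side, Cav1, the main protein of caveolae, had 0.313 to 2.60 CPM (median 1.74) in later OCA biopsies, against 4.89, 8.04 and 8.36 CPM in vehicle biopsies (log2 fold change −2.04, SE 0.44, adjusted p = 0.0458). Cav1 was below vehicle in every later OCA biopsy. Histone genes were called in both directions, with Hist1h1e at 1.54 and Hist1h2bk and Hist1h2bn at −0.84 and −0.88. Reads of histone genes may be split between close copies.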
